A study of Schizosaccharomyces pombe with 16 samples.

Results

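Fission yeast (Schizosaccharomyces pombe) takes up iron through a small set of surface and siderophore genes. Described here are 10 of these genes and their regulators, across all media and genotypes of an RNA-seq study of carbon catabolite repression, the shutdown of genes for other carbon sources while glucose is at hand. They are the siderophore transporter genes str1, str2 and str3, the reductive uptake genes frp1, fio1 and fip1, the ferrichrome synthesis genes sib1 and sib2, and the regulator genes fep1 and php4. All 10 were found among the 7019 counted features and passed the filter on low counts. The genes were chosen by name and function, and str3 also because it had one of the larger falls in glucose-starved cells. Every difference that involves the glucose-starved libraries is therefore given as a description with no test, and str3 was not tested in comparisons that hold the wild type glucose libraries.

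RNA came from 16 cultures in YES (yeast extract medium with supplements) at 32 °C, which were grown in 3% glucose, washed, and moved to the test medium for 4 h. Wild type cells were moved to glucose-starved medium (3% glycerol), glucose-deficient medium (3% glycerol with 0.1% glucose), sucrose (3%) or glucose (3%), with 2 libraries each. Cells without a working scr1 gene, which encodes the zinc finger repressor of glucose-repressed genes, were moved to sucrose or glucose. They were scr1Δ, in which a drug resistance marker replaced the coding sequence in a diploid that then gave haploid spores, and scr1::ura4+, a disruption in a background that by the study's strain list carries ura4-d18, leu1-32 and ade6-m216. Each allele had 2 libraries per medium. The alleles were pooled as the scr1- mutant, as in the study. No culture was given extra or chelated iron.

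Ferric iron is reduced at the cell surface by the ferrireductase Frp1, and the multicopper oxidase Fio1 with its permease Fip1 then oxidises and imports it. Ferrichrome, a siderophore, is made by the peptide synthetase Sib1 from a hydroxylated ornithine that Sib2 supplies, and Str1 and Str2 carry ferric siderophores into the cell. Str3 belongs to the same transporter family and has also been linked to heme uptake. Fep1 is a GATA-type repressor that shuts iron uptake genes when iron is plentiful. Php4 joins the CCAAT-binding complex of Php2, Php3 and Php5 when iron is scarce and represses genes whose products use iron, and Fep1 and Php4 each repress the gene of the other.

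The libraries held between 14305848 and 18607823 counts. They were made in 3 batches, A (5 unstranded libraries), B and C (11 stranded libraries in all), and batch terms passed an adjusted p-value of 0.05 for 3693 of the 6691 features tested. Levels are given as CPM, counts scaled by TMM library sizes. The scr1 feature had 88.8 to 125 CPM in the 8 mutant libraries, against 20.8 to 35.7 CPM in the 4 wild type libraries in sucrose and glucose. The counted feature is 3520 bases long and the RefSeq coding sequence of scr1 1698 bases, and a count per feature does not say where in it the reads lie, so these counts do not check the genotype.

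The genes lie at these places in the counting annotation (ASM294v2, release 25). On chromosome I are str3 (chrI:88201-90300, - strand), fep1 (chrI:442201-445721, + strand), sib1 (chrI:854453-869704, - strand), sib2 (chrI:870740-872773, + strand), fip1 (chrI:4232998-4234760, - strand) and fio1 (chrI:4235080-4237874, + strand). On chromosome II are frp1 (chrII:160357-162497, - strand), php4 (chrII:1915375-1916974, - strand) and str1 (chrII:2704645-2707648, + strand), and on chromosome III is str2 (chrIII:1435212-1442233, - strand). The genes fio1 and fip1 stand head to head, as do sib1 and sib2.

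Short binding words were searched on both strands in windows from 250 bases before to 50 bases after each RefSeq gene start (ASM294v3). The GATA words AGATAA and TGATAA, of the kind Fep1 binds, were in the windows of 7 of the 10 genes and of 44.1% of all 5112 protein-coding genes. The letters CCAAT were in 5 of the 10 and 42.2% of all windows. The 8 Scr1 hexamers, such as GTGGGG, read a C or G, then a C or T, then a pair of Gs, then an A or G, and last a G. They were in 3 of the 10 (str3, fio1 and fip1) and 18.9% of all windows. A match is a description of the letters and not a bound site. The starts of fio1 and fip1 are 303 bases apart, so the same pair of GATA words lies in both windows. The stretch before fio1 is shown because it lies between fio1 and fip1, the genes most like str3 in their pattern over the groups, the stretch before str3 because it held no GATA word although str3 had the widest range of levels, as a ratio, and the short frp1 stretch because its GATA words lay closest together. Capitals mark GATA words and Scr1 hexamers. The fio1 stretch (chrI:4234822-4235071, + strand) begins 250 bases before the start and has TGATAA at -233, AGATAA at -210, GTGGGG on the opposite strand at -55 and GTGGGG at -18. The str3 stretch (chrI:90290-90539, - strand) also begins 250 bases before the start and has a single hexamer, GTGGAG at -176. The frp1 stretch (chrII:162462-162490, - strand) runs from -98 to -70 and has TGATAA at -93 and AGATAA at -80.
fio1: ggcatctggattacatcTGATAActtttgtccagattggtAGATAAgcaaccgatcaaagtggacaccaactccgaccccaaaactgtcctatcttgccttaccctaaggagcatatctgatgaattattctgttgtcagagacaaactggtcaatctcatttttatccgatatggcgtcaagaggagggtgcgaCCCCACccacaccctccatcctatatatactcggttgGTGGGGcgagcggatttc
str3: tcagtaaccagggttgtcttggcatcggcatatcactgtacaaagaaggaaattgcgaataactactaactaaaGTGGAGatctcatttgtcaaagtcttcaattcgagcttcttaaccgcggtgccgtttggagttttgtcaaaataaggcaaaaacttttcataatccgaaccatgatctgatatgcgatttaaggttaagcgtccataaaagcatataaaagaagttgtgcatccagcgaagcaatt
frp1: tgatcTGATAAcgcatcaAGATAAtcaga

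**Figure D1:**
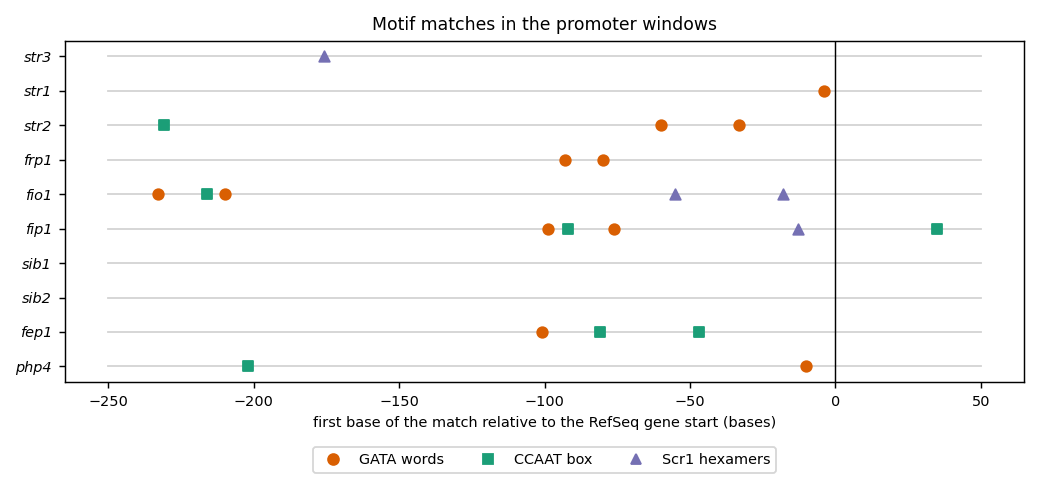
Matches to GATA words (circles), CCAAT (squares) and Scr1 hexamers (triangles) by distance from the RefSeq gene start (x axis, bases) in the windows of the 10 genes (rows). The windows of sib1 and sib2 held none of these words, and fio1 and fip1 share the same pair of GATA words.

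Per length, the genes stood at very different levels in the stranded wild type glucose library. str1 had 149 and fip1 122 CPM per kilobase. php4 had 37.9, fio1 33.5, sib2 26.6, fep1 23.2, frp1 21.1 and str3 17.3 CPM per kilobase, and str2 (5.66) and sib1 (2.78) were lowest. As this is 1 library, neighbours in this order have no spread to be compared with.

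Levels of str2 could not be read in the unstranded libraries. Its feature overlaps 3 genes on the opposite strand, among them the ribosomal protein gene rpl6 by 893 bases, and str2 had 1931 to 2397 CPM in the 5 unstranded libraries and 39.1 to 69.9 CPM in the 11 stranded ones. The sib2 feature shares 17 bases with an antisense RNA, and the other 8 features overlap none. No 50-base stretch of the 10 features occurs elsewhere in the genome.

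**Figure D2:**
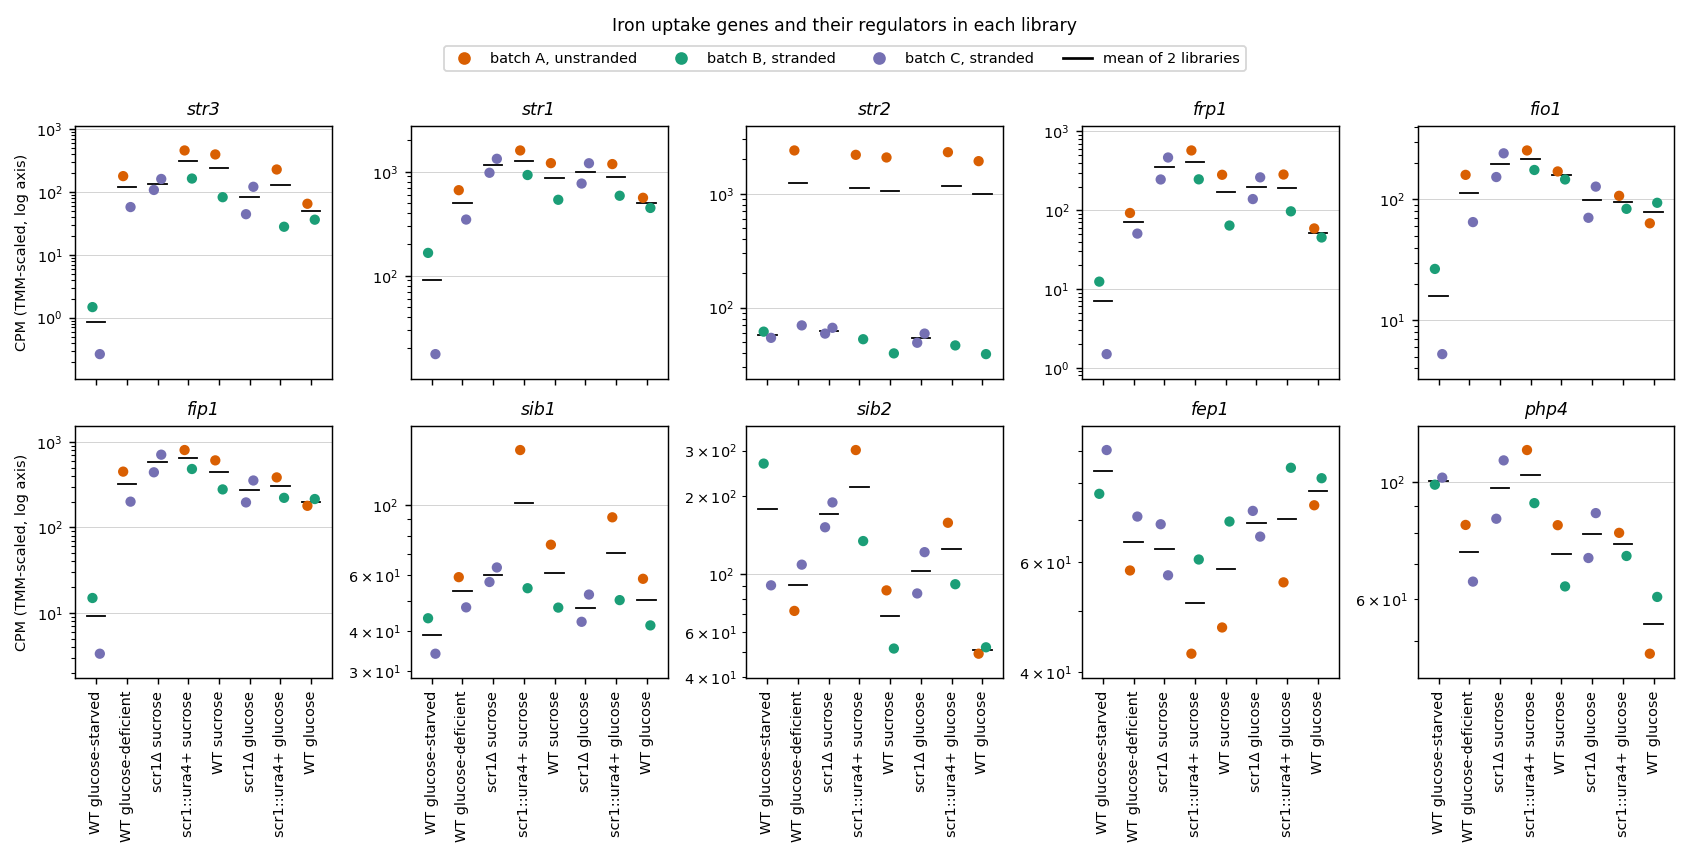
CPM of each gene (log y axes, which differ between panels) in the 16 libraries, by strain and medium (x axis); points are libraries coloured by batch and bars are means of 2. The glucose-starved libraries are lowest for str3, str1, frp1, fio1 and fip1, and str2 splits by library type.

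In glucose-starved cells str1, str3, frp1, fio1 and fip1, the import genes other than str2, stood far below their levels in glucose, while sib2 and php4 stood above theirs. str3 had 1.47 and 0.263 CPM (22 and 3 counts) in the glucose-starved libraries, against 65.2 and 36.4 CPM in the wild type glucose libraries. The fitted log2 difference of str3 was -4.94 ± 0.81 (SE), 30.8-fold lower. fip1, the iron permease gene, had 14.95 and 3.33 CPM in starved cells, against 179 and 215 CPM in glucose (-4.14 ± 0.59). Both genes were lower in each starved library than in each glucose library, by the largest fitted differences of the 10.

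Of the other import genes, frp1, fio1 and str1 were also lower, by smaller differences. frp1 had 12.4 and 1.49 CPM in starved cells, against 58.7 and 45.1 CPM in glucose (-2.39 ± 0.75). fio1 had 26.6 and 5.26 CPM in starved cells, against 63.4 and 93.7 CPM in glucose (-2.14 ± 0.56). str1 had 166 and 17.6 CPM in starved cells, against 561 and 448 CPM in glucose (-2.16 ± 0.72). None of these 3 overlapped between the groups, and in all 5 of the 10 genes were lower without overlap, as were 37.7% of all features.

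Ferrichrome synthesis and the regulators did not follow these 5 genes. sib2 had 267 and 90.6 CPM in starved cells, against 49.4 and 52.2 CPM in glucose (2.02 ± 0.49), with no overlap. Its partner sib1 had 44.0 and 34 CPM in starved cells, against 58.5 and 41.8 CPM in glucose, so the levels overlapped (0.09 ± 0.24 with the batch term). php4 had 99.0 and 102 CPM in starved cells, against 47.2 and 60.6 CPM in glucose (0.96 ± 0.20), with no overlap. fep1 had 77.0 and 90.4 CPM in starved cells, against 73.8 and 81.6 CPM in glucose (-0.09 ± 0.17), and the groups overlapped. The siderophore transporter gene str2 had 61.6 and 54.3 CPM in starved cells, against 39.1 CPM in the stranded glucose library (0.42 ± 0.19). Without overlap, 2 of the 10 genes (sib2 and php4) were higher, as were 30.0% of all features.

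By the size of the log2 difference alone, with no test, 5 of the 10 genes lay under -1, where 21.4% of all features did, and 1 (sib2) lay above 1, where 22.1% of all features did. As str3 was chosen on this contrast, nothing is read from these counts. The median log2 difference was -1.12 over the 10 genes and -0.02 over all features. In bulk RNA, fewer expressing cells and less RNA per cell cannot be told apart.

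The starved replicates, of batches B and C, lay far apart for the 5 lower genes. The library of batch B was above that of batch C 9.4-fold for str1, 8.32-fold for frp1, 5.1-fold for fio1 and 4.49-fold for fip1. For str3 the ratio was 5.61, with an exact 95% counting interval of 1.68 to 29.3. For sib2 it was 2.95, whereas str2 (1.13), fep1 (0.851) and php4 (0.97) were nearly level. Batch B was more than 2-fold above batch C for 6 of the 10 genes and for 13.6% of all features. Wide gaps were not particular to these genes. Among genes of copper supply, ctr4 (25.3-fold), ctr5 (8.31-fold) and ctr6 (6.45-fold) were also far higher in batch B, while cuf1 (1.01) and ccc2 (0.847) were nearly level.

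The direction was the same within the only batch that held wild type starved and wild type glucose libraries. Within batch B the log2 difference, starved minus glucose, was -4.51 for str3, -3.84 for fip1, -1.85 for frp1, -1.81 for fio1 and -1.44 for str1. For sib2 it was 2.35 and for php4 0.71. The size depended on the library: without the starved library of batch C the fitted difference was -4.18 for str3, -1.19 for str1, -1.45 for frp1, -1.47 for fio1, -3.46 for fip1 and 2.64 for sib2. Without the starved library of batch B it was -6.99 for str3, -4.85 for str1, -5.23 for frp1, -3.71 for fio1, -5.73 for fip1 and 0.81 for sib2.

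The same starved libraries were also set against sucrose and against glucose-deficient cells. Against sucrose the fitted difference of str3 was -6.81 ± 0.83, that of fip1 -5.20 ± 0.62 and that of fio1 -3.15 ± 0.58. Against glucose-deficient cells it was -5.86 ± 0.83 for str3, -4.87 ± 0.63 for fip1 and -2.83 ± 0.61 for fio1. Within batch C, which had no wild type glucose library, starved minus glucose-deficient was -5.86 for fip1, -4.97 for frp1, -4.29 for str1 and -3.59 for fio1, and sib2 did not hold its direction (-0.265).

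**Figure D3:**
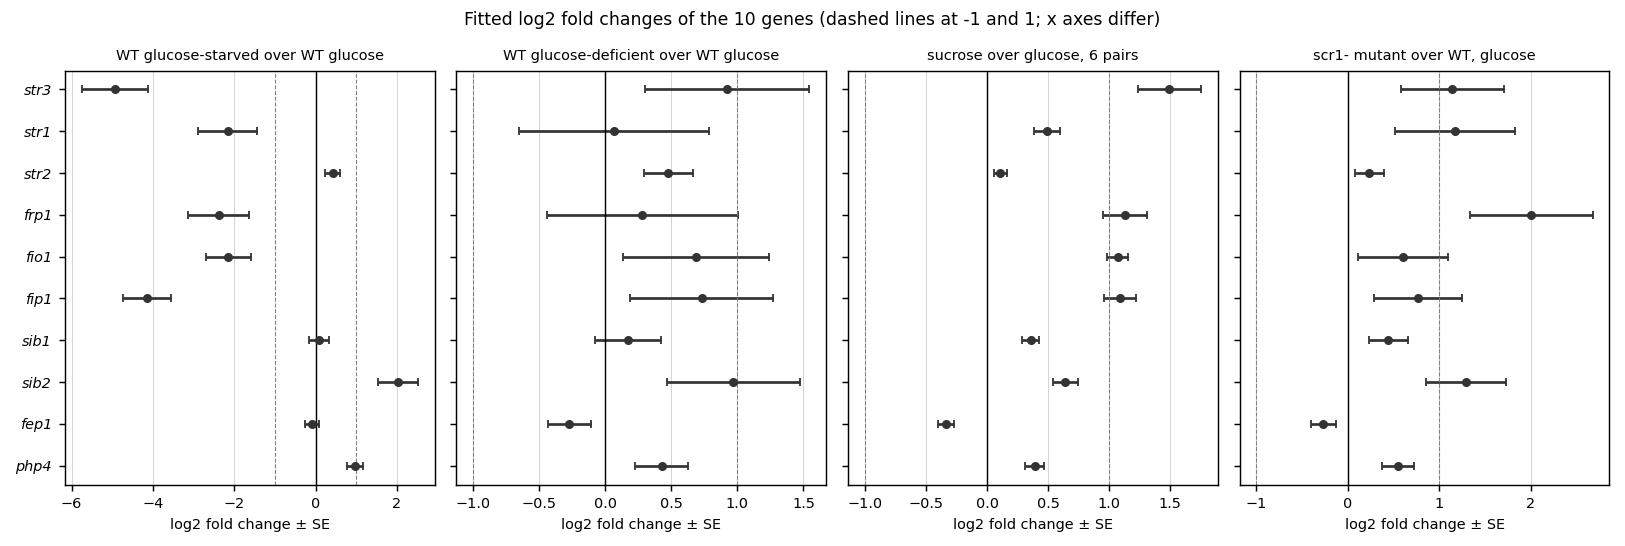
Fitted log2 fold changes ± SE (x axes, which differ) of the 10 genes (rows) in 4 comparisons: starved over glucose, glucose-deficient over glucose, sucrose over glucose in 6 pairs, and scr1- mutant over wild type in glucose. The import genes other than str2 lie below 0 in starved cells (str3 at -4.94). In the sucrose pairs frp1, fio1 and fip1 lie just above 1, each with a smaller SE than it has in the other panels.

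Sucrose, which the cells split outside before they take up its sugars, gave higher levels of str1, str3, frp1, fio1 and fip1 than glucose in wild type and in both scr1 mutants. Libraries of one strain, replicate number and batch form 6 pairs of a sucrose and a glucose culture, which by the study's methods were split from one culture. The fit over these pairs was added after the values had been seen. str3 had 398 CPM in sucrose against 65.2 CPM in glucose in the wild type pair of batch A, and 83.0 against 36.4 CPM in that of batch B. In the scr1::ura4+ pairs it had 461 against 229 CPM and 164 against 28.1 CPM, and in the scr1Δ pairs 108 against 44.5 CPM and 162 against 121.5 CPM. str3 was thus higher in sucrose in 6 of 6 pairs, by 1.33-fold to 6.11-fold (log2 fold change 1.49 ± 0.26, not tested). In the 4 mutant pairs, none of which was used to choose it, its log2 fold change was 1.27 ± 0.26 and missed the threshold (adjusted p = 0.059, edgeR's quasi-likelihood test with Benjamini-Hochberg adjustment over all features).

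The 3 genes of reductive uptake rose in sucrose. fio1 was higher in sucrose in 6 of 6 pairs, by 1.56-fold to 2.68-fold (log2 fold change 1.07 ± 0.09, edgeR adjusted p = 0.000659). fip1 was higher in 6 of 6 pairs, by 1.3-fold to 3.4-fold (1.09 ± 0.13, adjusted p = 0.00457). frp1 was higher in 6 of 6 pairs, by 1.42-fold to 4.8-fold (1.13 ± 0.18, adjusted p = 0.0115). These were the 3 of the 9 tested genes past both the adjusted p and the fold limit, where 0.205% of the 6352 features tested were called higher. In the mutant pairs alone they also passed both limits, with 1.09 ± 0.06 for fio1, 1.09 ± 0.05 for fip1 and 1.01 ± 0.08 for frp1, where 0.302% of features were called higher. Without the wild type pair of batch A, or with the 4 stranded pairs only, their adjusted p stayed under 0.05 but each log2 fold change was under 1 (frp1 0.91 and 0.89, fip1 0.95 and 0.92, fio1 0.9995 and 0.94), so the count past both limits was 0.

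The remaining genes moved less. sib2 was at 0.64 ± 0.10 (adjusted p = 0.0119) and higher in sucrose in 5 of 6 pairs. str1 was at 0.49 ± 0.10 (adjusted p = 0.0428), php4 at 0.39 ± 0.08 (adjusted p = 0.0356) and sib1 at 0.36 ± 0.07 (adjusted p = 0.0277), each higher in 6 of 6 pairs. The repressor gene fep1 went the other way, at -0.34 ± 0.07 (adjusted p = 0.0373), and was lower in sucrose in 6 of 6 pairs. str2 was at 0.11 ± 0.05 (adjusted p = 0.382). With no fold limit 8 of the 9 tested genes had an adjusted p under 0.05, against 1.76% of features. With the 4 stranded pairs only, 5 of these genes were no longer under it. Their edgeR adjusted p was 0.123 for sib2, 0.174 for str1, 0.19 for sib1, 0.19 for php4 and 0.293 for fep1. The median log2 fold change was 0.57 over the 10 genes and 0.00 over all features. Without the batch A pair of wild type, or that of scr1::ura4+, the adjusted p of str1, php4, sib1 and fep1 was between 0.0534 and 0.124.

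**Figure D4:**
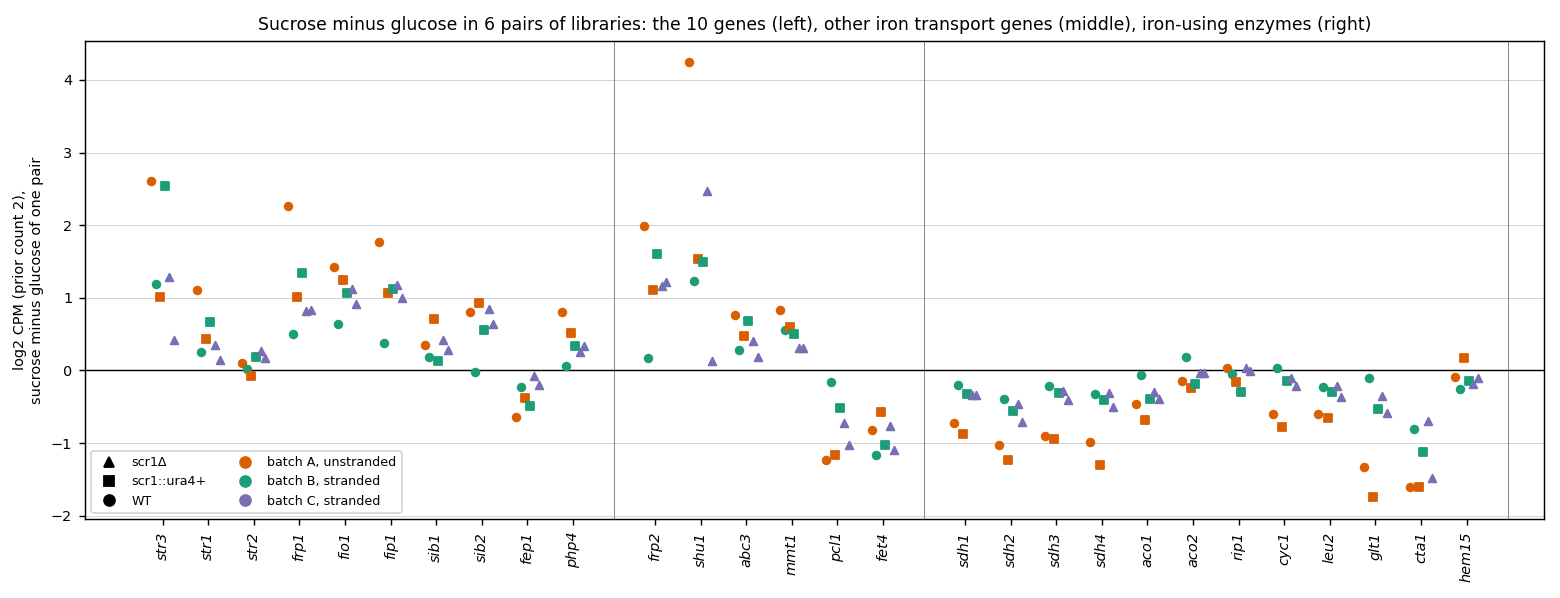
Sucrose minus glucose (y axis, log2 CPM with a prior count of 2) in each of the 6 pairs for the 10 genes, 6 other iron transport genes and 12 iron-using enzymes (x axis); shapes give the strain and colours the batch. All 6 points of str3, frp1, fio1 and fip1 lie above 0, and all 6 of fep1, pcl1, fet4 and cta1 below 0.

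In the fit of all 16 libraries, which has a batch term but no pairs, the errors were larger and the differences did not pass the test. Wild type sucrose over glucose gave 1.86 ± 0.59 for str3 (not tested), 1.45 ± 0.69 for frp1, 1.063 ± 0.51 for fip1, 1.01 ± 0.52 for fio1 and -0.44 ± 0.16 for fep1. None of the 9 tested genes was called by edgeR (2 had an unadjusted p under 0.05, and DESeq2 called 0), against 0.0149% of features. In the scr1- mutant the values were 1.15 ± 0.41 for str3, 1.08 ± 0.36 for fip1, 1.065 ± 0.37 for fio1 and 0.97 ± 0.47 for frp1. Again edgeR called 0 of 10 (7 had an unadjusted p under 0.05, and DESeq2 called 0), against 0.0% of features. Within batches, the wild type difference was 2.61 in batch A and 1.19 in batch B for str3, 2.26 and 0.50 for frp1, 1.77 and 0.37 for fip1, and 1.42 and 0.64 for fio1.

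In glucose-deficient medium none of the uptake genes passed the test against glucose, and the errors were wide. sib2 had 72.2 and 109 CPM in glucose-deficient cells, against 49.4 and 52.2 CPM in glucose (0.97 ± 0.50, adjusted p = 0.2). It did not overlap between the groups, and without the glucose-deficient library of batch A it was called (1.59 ± 0.53, adjusted p = 0.0453). fip1 had 451 and 201 CPM in glucose-deficient cells, against 179 and 215 CPM in glucose (0.73 ± 0.54), and fio1 had 159.5 and 64.9 CPM, against 63.4 and 93.7 CPM in glucose (0.69 ± 0.55). str3 had 179.7 and 57.8 CPM in glucose-deficient cells, against 65.2 and 36.4 CPM in glucose (0.92 ± 0.62, not tested). These 3 overlapped between the groups, and for each the batch A library was the high one. php4 was at 0.43 ± 0.20 and fep1 at -0.27 ± 0.16, and neither overlapped. Groups did not overlap for these 2 genes and sib2, 3 of the 10, and for 44.1% of all features. The fitted differences of frp1 (0.28 ± 0.72), str1 (0.06 ± 0.72) and sib1 (0.17 ± 0.25) were smaller than their errors and turned negative with library totals as the only scaling (-0.0051, -0.22 and -0.10). Of the 9 tested genes 0 were called (1, str2, had an unadjusted p under 0.05, and DESeq2 called 0), against 7.58% of all features.

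Against sucrose, the fitted differences of glucose-deficient cells were -1.17 ± 0.70 for frp1, -0.94 ± 0.60 for str3 and -0.65 ± 0.71 for str1. frp1 had 92.2 and 50.5 CPM in glucose-deficient cells, against 282 and 63.9 CPM in sucrose, and the groups overlapped. edgeR called 0 of the 10 (1, str2, had an unadjusted p under 0.05, and DESeq2 called 0), against 6.99% of features. Without the 2 starved libraries, which are not in this comparison but share its estimate of spread, frp1 was called (-1.38 ± 0.43, adjusted p = 0.0336).

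The fitted levels of frp1 and sib2 were higher in cells without Scr1 than in wild type in both media. Neither gene passed the planned test, and in sucrose the levels of frp1 overlapped. In glucose frp1 had 139 and 261.5 CPM in scr1Δ and 284 and 96.8 CPM in scr1::ura4+ cells, against 58.7 and 45.1 CPM in wild type. All 4 mutant libraries were above both wild type libraries (2.0 ± 0.67, adjusted p = 0.164). Without the 2 starved libraries, which are not in this comparison but share its estimate of spread, frp1 was called (1.75 ± 0.41, adjusted p = 0.0267). sib2 had 84.3 and 122 CPM in scr1Δ and 158 and 91.5 CPM in scr1::ura4+ cells, against 49.4 and 52.2 CPM in wild type. It also did not overlap (1.29 ± 0.44, adjusted p = 0.173), and DESeq2 called it (1.3 ± 0.43, adjusted p = 0.0435).

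Other genes in glucose were closer to wild type or varied more. str1 had 587 to 1206 CPM in the mutant, against 561 and 448 CPM in wild type (1.17 ± 0.66, adjusted p = 0.435). php4 had 71.8 to 87.4 CPM in the mutant, against 47.2 and 60.6 CPM in wild type (0.55 ± 0.17, adjusted p = 0.14). Neither overlapped, so 4 of the 10 genes were higher without overlap, as were 11.8% of all features. The levels of fip1 (0.77 ± 0.48), fio1 (0.61 ± 0.49), sib1 (0.44 ± 0.21), fep1 (-0.27 ± 0.14) and str3 (1.14 ± 0.56, not tested) overlapped. In all, edgeR called 0 of the 9 tested genes (3 had an unadjusted p under 0.05, and DESeq2 called 1), against 1.84% of features called by edgeR.

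In sucrose sib2 had the largest difference of the 10 genes. It had 152 and 189 CPM in scr1Δ and 301.5 and 134 CPM in scr1::ura4+ cells, against 86.6 and 51.7 CPM in wild type (1.65 ± 0.44, adjusted p = 0.08). sib2 and php4 were higher without overlap, 2 of the 10 genes, as were 12.3% of all features. DESeq2 called sib2 (1.66 ± 0.43, adjusted p = 0.00393). Without the 2 starved libraries, which are not in this comparison but share its estimate of spread, edgeR called sib2 (1.5 ± 0.32, adjusted p = 0.0191). frp1 had 246 and 467 CPM in scr1Δ and 574 and 247 CPM in scr1::ura4+ cells, against 282 and 63.9 CPM in wild type (1.53 ± 0.65, adjusted p = 0.251), and overlapped. str1 was at 0.80 ± 0.64, and str3 at 0.43 ± 0.52 with the batch term and -0.10 ± 0.93 without it. In the planned fit edgeR called 0 of the 10 (4 had an unadjusted p under 0.05, and DESeq2 called 1), against 1.57% of features called by edgeR.

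The effect of the scr1- mutant in sucrose minus that in glucose lay between -0.71 and 0.36 on the log2 scale for the 10 genes. Of the 9 tested, edgeR called 0 (0 had an unadjusted p under 0.05, and DESeq2 called 0), against 0.0149% of features. For frp1 it was -0.47 ± 0.83 and for sib2 0.36 ± 0.56, each smaller than its error.

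Batches A and B each held scr1::ura4+ and wild type libraries. For frp1 the log2 difference in glucose was 2.27 in batch A and 1.10 in batch B, and in sucrose 1.03 and 1.95. For sib2 it was 1.68 and 0.81 in glucose, and 1.80 and 1.38 in sucrose. Both genes were therefore higher in the mutant within each batch and medium. str3 was not, with 1.81 in batch A and -0.37 in batch B in glucose. Batch C held the scr1Δ libraries and no wild type glucose or sucrose library, so in scr1Δ the deletion and the batch cannot be told apart.

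The repressor gene fep1 ran opposite to str3, a relation noticed after the values had been seen. fep1 had 42.8 to 90.4 CPM over the 16 libraries, and str3 0.263 to 461 CPM. Over the 14 libraries without the starved ones Pearson's r of log2 CPM was -0.973 and Spearman's rho -0.974. In each of the 3 batches the order of these libraries by fep1 was the exact reverse of their order by str3. Without the 2 libraries farthest from the median of fep1, r was -0.964 over 12 libraries. The libraries share cultures, strains and batches, so they are not independent and no p is given. Other import genes were less tightly related to fep1, with r of -0.865 for fip1, -0.756 for str1, -0.751 for frp1 and -0.739 for fio1 over the 14 libraries. The starved libraries did not lie on the same line: in one of them str3 had 1.47 CPM at 77.0 CPM of fep1, against 36.4 CPM at 81.6 CPM of fep1 in a wild type glucose library of the same batch.

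**Figure D5:**
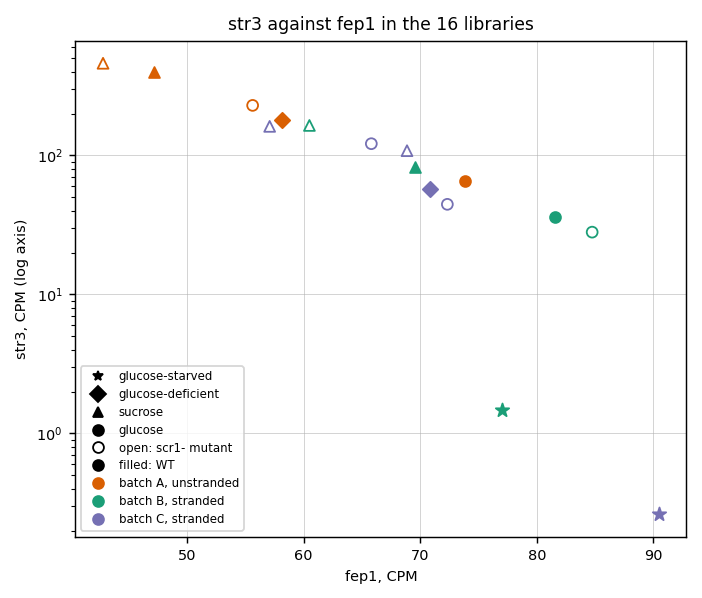
str3 (log y axis, CPM) against fep1 (x axis, CPM) in the 16 libraries; shapes give the medium, open symbols the scr1- mutant and colours the batch. Along the other 14 libraries str3 falls as fep1 increases, and the 2 glucose-starved libraries (1.47 and 0.263 CPM of str3) lie far below them.

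Over the 8 strain and medium groups, the genes with a pattern most like that of str3 were its fellow import genes fip1 (r = 0.993) and fio1 (0.984). Next came rar1 (0.98), SPAC6F6.04c (0.979) and pdc101 (0.979), out of 4752 protein-coding genes, and the least like were SPBC713.09 (-0.988) and SPCC757.04 (-0.987). Among the rest of the 10, str1 ranked 45 (0.96), frp1 301 (0.931), sib1 1452 (0.759), str2 2073 (0.508), sib2 2727 (-0.122), php4 2804 (-0.196) and fep1 3836 (-0.807). Without the starved group, over 7 groups, fio1 ranked 3 (0.923) and fip1 4 (0.919), behind pof14 (0.954) and SPAPB24D3.03 (0.944), and fep1 ranked last (-0.994). These are correlations of group means with no batch term, and a description only. The groups differ in the batches they hold, and only some hold an unstranded library, where str2 could not be read. Nothing is therefore read from the values of str2.

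Beyond the 10, 44 genes of iron and copper handling were grouped by function. In the sucrose pairs, where 0.205% of all features were called higher and 0.0787% lower, 2 of 6 genes of other iron acquisition and vacuolar iron rose: frp2, a further ferrireductase gene (1.26 ± 0.16, edgeR adjusted p = 0.00484), and shu1, which encodes a heme uptake protein and lies next to str3 (1.94 ± 0.39, adjusted p = 0.0325). shu1 had few counts in stranded libraries, 0.402 to 5.55 CPM in sucrose and glucose, and in the 4 stranded pairs its adjusted p was 0.303. The vacuolar iron transporter gene pcl1 was at -0.80 ± 0.13 (adjusted p = 0.0115), inside the fold limit, and in the stranded pairs its adjusted p was 0.0904. Of the same list, fet4 was also lower in sucrose in 6 of 6 pairs (0.439-fold to 0.669-fold). In the stranded pairs fet4 passed both limits (-1.02 ± 0.12, adjusted p = 0.0138). Of the 12 iron-using enzymes all had a negative log2 fold change (median -0.43, against 0.00 over all features). An adjusted p under 0.05 was reached by 7 of them, against 1.76% of all features in either direction. Both limits were passed by 1, the catalase gene cta1 (-1.20 ± 0.12, adjusted p = 0.00216). In the 4 stranded pairs cta1 (adjusted p = 0.0138), sdh2 (0.0176) and sdh4 (0.0371) were under 0.05, and the other enzymes were not. Of the 5 copper supply genes the copper transporter gene ctr4 passed both (-1.24 ± 0.18, adjusted p = 0.00944). None of the 4 mitochondrial carriers, 8 genes of the CCAAT-binding complex and regulator partners, or 9 genes of iron-sulfur cluster assembly passed both limits in edgeR or DESeq2 (in edgeR 1, 2 and 3 of them had an unadjusted p under 0.05).

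In glucose-deficient cells, where 0 of the 9 tested uptake genes and regulators were called against glucose, 4 of the 44 rose and 1 fell, where 7.58% of all features were called. The iron-sulfur scaffold gene isu1 rose (1.43 ± 0.23, adjusted p = 0.00248), as did rip1, the Rieske protein gene (1.21 ± 0.15, adjusted p = 0.000524), cyc1, the cytochrome c gene (1.02 ± 0.22, adjusted p = 0.00985), and php2 (1.53 ± 0.35, adjusted p = 0.0138). The features of rip1 and php2 overlap genes on the opposite strand, and php2 had 230 CPM in the unstranded and 37.7 CPM in the stranded glucose-deficient library. fet4, whose budding yeast namesake is a low-affinity iron transporter, fell (-2.38 ± 0.30, adjusted p = 0.000678). Against sucrose 7 of the 12 iron-using enzymes were called higher in glucose-deficient cells, where 3.48% of all features were, among them cta1 (2.09 ± 0.62, adjusted p = 0.0385) and the succinate dehydrogenase gene sdh1 (1.38 ± 0.22, adjusted p = 0.00285). The levels of cta1 overlapped: the glucose-deficient libraries had 37.15 and 302 CPM, against 15.5 and 37.7 CPM in sucrose.

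In the scr1- mutant isu1 was the single call among the 44 in glucose (1.04 ± 0.20, adjusted p = 0.0163), where 1.84% of all features were called. In sucrose edgeR called 0 of the 44 (8 had an unadjusted p under 0.05, and DESeq2 called 1), against 1.57% of features called by edgeR. In starved cells, by the log2 difference alone, 11 of the 44 lay above 1 and 6 under -1, against 22.1% and 21.4% of all features. The 11 include shu1, which was near the floor. It had 0.40 and 0 CPM (6 and 0 counts) in starved cells, against 1.59 and 0.40 CPM in wild type glucose, so its levels did not rise. On the high side cta1 was at 5.19 ± 0.65, the iron-sulfur assembly gene isa2 at 2.81 ± 0.36, isu1 at 2.41 ± 0.23, php3 at 2.09 ± 0.22 and the aconitase gene aco1 at 1.91 ± 0.20. On the low side were grx4, which encodes a glutaredoxin partner of Fep1 and Php4 (-1.79 ± 0.18), mmt1 (-1.24 ± 0.39) and mrs3 (-1.18 ± 0.21), genes of mitochondrial iron transport, and abc3 (-1.10 ± 0.25), a vacuolar transporter gene. As ratios of batch B over batch C, the starved replicates stood at 1.4 for isu1, 0.883 for php3, 0.706 for cta1 and 0.719 for grx4. These lay nearer each other than the replicates of str1, str3, frp1, fio1 and fip1. The replicates of mmt1 (3.38) and isa2 (0.393) lay in between.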

How the data were processed

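Per the labels and the study's methods, the authors trimmed reads with Cutadapt 1.9.1, checked them with FastQC, aligned them with TopHat2 2.1.1 to ASM294v2 (release 25) and counted them with featureCounts 1.5.2, where reads that hit several places or features were counted on each. The deposited values are raw counts per feature. Batch A was counted without strand, B and C by strand. The study names 2 independent biological replicates per strain and condition. str3 and frp1 had few counts in starved cells (3 and 17 in the lower library).

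The main test was edgeR 4.0.16 under R 4.3.3, with TMM scaling, filterByExpr at a minimum count of 10, a quasi-likelihood fit of 6 groups with the mutants pooled, and a batch term (8 residual degrees of freedom). Adjustment ran over all features. Calls needed an adjusted p under 0.05 together with at least a doubling or halving. SE is the log2 fold change over the square root of F. For the 6 sucrose and glucose pairs each pair was a block (6352 features), as the study split each culture between media. Over features, the gap between replicates in glucose was correlated with that in sucrose (r = 0.969 in wild type, 0.972 in scr1::ura4+ and 0.334 in scr1Δ). In wild type and scr1::ura4+ the replicates also differ in batch and library type, so r there cannot tell a shared culture from a shared batch. Both scr1Δ replicates are of batch C. Scripts were tested on simulated data. Promoters and symbols came from RefSeq (ASM294v3; 6845 of 7019 identifiers matched). Tables and figures were made with Python 3.11.15.

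The 10 genes, the lists of 44 others and the tests were chosen with earlier results of these data known. All 10 genes were named. Others were named when past the limits in a tested comparison or past a log2 difference of 1 in starved cells. The genes pcl1, sdh4, ctr5, ctr6, cuf1 and ccc2 were named after their values were seen. For likeness, the 5 most and 2 least correlated genes with a mean of at least 10 CPM were taken. Alternatives were DESeq2 1.42.0, its size factors, library totals, no filter, no batch term, a replicate block, subsets of libraries, no fold limit and leaving out each library. The pair fits, the fits without starved libraries, the counts by log2 difference alone, the shares of groups without overlap and the relation to fep1 were added after seeing the data. Strain numbers differ between the labels and the study's strain list, so groups rest on the sample titles.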

Additional observations from a re-analysis of the deposited data

Results flagged for a closer look

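For each gene and medium, the 4 mutant libraries were searched for one that stood apart, by the gap to its nearest neighbour over the whole range. Of 20 combinations 4 passed the 95% critical value, which chance passes in about 1 in 20. For str2 the ratio was 0.994 in glucose and 0.994 in sucrose: the unstranded scr1::ura4+ libraries had 2314 CPM (glucose) and 2194 CPM (sucrose), and the stranded mutant libraries 46.6 to 66.6 CPM. For sib1 in sucrose it was 0.906, with 149 CPM in the scr1::ura4+ library of batch A and 54.7 to 63.6 CPM in the others. For str3 in sucrose it was 0.841, with 461 CPM in that library and 108 to 164 CPM in the others. Wild type str3 in sucrose was also higher in batch A (398 CPM) than in batch B (83.0 CPM). The part of batch or library type in the sib1 and str3 values was not tested.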

How the results depend on the processing

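The number of the 10 genes called (9 where str3 was not tested) moved as follows. With each pair as a replicate block in place of the batch term, wild type and mutant sucrose over glucose together gave 3 calls, against 0 in wild type without it. In the pairs the count of 3 became 0 with stranded libraries only, 8 with no fold limit, and 0 to 3 when 1 pair was left out (0 without wild type pair 1). For glucose-deficient over glucose, glucose-deficient over sucrose, and scr1- over wild type in glucose and in sucrose, the count of 0 became 0 to 1 when 1 library was left out. It became 1 without the starved libraries in the last 3 of these, and 1 with DESeq2 in both mutant comparisons. The shares of all features called in these alternative fits are not set beside the counts. Nothing about the 10 genes is therefore read from them. For starved over glucose-deficient the number past both limits was 2 with stranded libraries only, against 5. This count uses an adjusted p, which is no valid test here because str3 was chosen on the starved libraries. It describes the processing only, and nothing is read from it.

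Over 6 tested comparisons the 44 other genes gave 16 calls, and 10 with library totals, 3 with no batch term, 6 with the replicate number as a replicate block in place of batch, 8 with stranded libraries only, and 9 to 16 with 1 library left out (9 without wild type sucrose replicate 1 or glucose-deficient replicate 2). Library totals moved the median of all features by up to -0.39 (starved over glucose), and for glucose-deficient over glucose they gave 159 features higher and 553 lower, against 259 and 248.

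Directions that turned were all of uncalled differences. Glucose-deficient over glucose turned for str1 to -0.22 with library totals, -0.074 with the replicate block and -0.27 without starved libraries (-0.31 to 0.29 with 1 library left out), for frp1 to -0.0051 and -0.0085 with library totals and without starved libraries (-0.20 to 0.64), for sib1 to -0.10 with library totals (-0.20 to 0.50), and for fio1 to -0.15 with stranded libraries. Glucose-deficient over sucrose turned with wild type libraries only for str1 (0.30), fio1 (0.35; -0.94 to 0.018 with 1 library left out) and fip1 (0.26; -0.69 to 0.22). str3 in scr1- over wild type in sucrose turned to -0.10 with no batch term. The causes were not tested.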

Other observations

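The neighbours of frp1 and str3 gave opposite pictures in the sucrose pairs. pcl1 lies 1036 bases from frp1 on the same strand, with 0 features between, and was lower in sucrose in 6 of 6 pairs (0.424-fold to 0.9-fold), where frp1 was higher in 6 of 6. shu1 lies 1876 bases from str3 on the same strand, and both were higher in sucrose in 6 of 6 pairs (1.09-fold to 20.3-fold for shu1). In batch A, which was unstranded, shu1 had 163 CPM in sucrose against 56.0 CPM in glucose in scr1::ura4+ cells, and 32.4 against 1.59 CPM in wild type cells. The stranded libraries in sucrose and glucose had only 0.40 to 5.55 CPM of shu1, and in the stranded pairs its edgeR adjusted p was 0.303.

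The head-to-head pairs also differed. fip1 ranked 1 and fio1 ranked 2 in likeness to str3, and both were far lower in starved cells than in glucose. sib1 and sib2, whose starts are 1108 bases apart, parted in starved cells, with fitted log2 differences of 0.09 ± 0.24 for sib1 and 2.02 ± 0.49 for sib2. The starved libraries had 267 CPM of sib2 in batch B and 90.6 CPM in batch C, against 109 CPM in the glucose-deficient library of batch C.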
